A study of Mus musculus with 24 samples.

Results

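The genes described here are 8 membrane adenylyl cyclases, Adcy1, Adcy2, Adcy3, Adcy5, Adcy6, Adcy7, Adcy8 and Adcy9, and the phosphodiesterase Pde9a, which are 9 of the 19938 genes that a probe set of the array names alone. Each was read by 1 probe set. They were chosen by the measured oxygen differences of Adcy8 and Pde9a, which were unlike between regions and times, and the other cyclases were added as their family. The oxygen values of those genes are therefore a description and carry no test. Their levels averaged over oxygen, and all values of the other 7 cyclases, did not enter the choice. The levels of Adcy8 and Pde9a come from the same arrays as their oxygen values.

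Primary neural stem cell cultures were prepared from the cortex or the midbrain (mesencephalon) of C57Bl/6 mouse fetuses at embryonic day 14. They were kept in expansion medium for 48 h or 13 d, either at 21% O2 or at 3% O2 in a mixture with nitrogen and carbon dioxide. Region, time and oxygen gave 8 groups of 3 arrays, each array read by 1 RNA sample hybridised as biotin-labelled cDNA to a whole-transcript mouse gene array. All values are normalised log2 signals, so a difference of 1 is a doubling. Whether a group's 3 samples stem from different cultures or litters is not stated, so the p-values measure the spread between these samples, which may be technical.

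Adenylyl cyclases make the second messenger cyclic AMP from ATP, and each isoform combines the inputs of G protein-coupled receptors in its own way. Adcy1 and Adcy8 are stimulated by calcium through calmodulin and are abundant in neurons. Adcy2 and Adcy7 are stimulated by G protein beta-gamma subunits, while Adcy5 and Adcy6 are inhibited by calcium and by the inhibitory G proteins. Adcy3 serves odour detection and lies in the primary cilium of neurons. Adcy9 is widely expressed and little affected by the plant diterpene forskolin, which activates the other membrane forms. Pde9a breaks down cyclic GMP, the sister messenger, with high affinity and leaves cyclic AMP nearly untouched.

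The array medians lay between 7.35 and 7.42, and arrays of one group correlated at 0.986 to 0.999. Per the labels, run 1 of the arrays held the 6 from midbrain 13 d and run 2 held the 18 others, so the level of a gene at midbrain 13 d and its array run cannot be told apart. Comparisons of oxygen within a region and time lie inside 1 run. Of 8 hypoxia-induced genes used as a check, 8 rose at 3% O2 in midbrain 48 h, 7 in midbrain 13 d, 3 in cortex 48 h and 8 in cortex 13 d. By the same test, described below, 1.19%, 23.9%, 12.3% and 0.607% of all probe sets changed in either direction, in that order. The mean of the 8 genes at 21% O2 was 9.00 in midbrain 48 h, 11.50 in midbrain 13 d, 11.49 in cortex 48 h and 9.39 in cortex 13 d. The midbrain markers En1 and En2, transcription factors of the midbrain-hindbrain border, were not fully apart from their range in cortex. En1 spanned 8.81 to 9.49 in midbrain and 6.74 to 8.86 in cortex, and En2 spanned 8.82 to 10.09 and 5.93 to 9.13. The overlap came from cortex 48 h at 3% O2 alone, where En1 reached 8.86 and En2 reached 9.13 with an SD of 1.05. The next highest cortex group, 48 h at 21% O2, reached 8.25 and 8.04. The cortical factor Emx1 did not separate the regions, at 7.51 to 7.91 in midbrain and 7.55 to 8.07 in cortex. Nor did the cortical factors Emx2, at 6.29 to 9.45 and 6.86 to 9.21, and Lhx2, at 8.52 to 10.89 and 8.03 to 10.99. The Emx2 means of midbrain 48 h, 9.26 and 9.34, lay above those of every cortex group. The midbrain factors Pax7 (7.90 to 9.70 and 7.22 to 8.12) and Gata3 (6.48 to 11.17 and 6.35 to 6.83) overlapped too. Gata3 was high in midbrain 48 h (means 10.99 and 11.10) and not in midbrain 13 d (6.54 and 6.92).

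The make-up of the cultures differed between the groups and touches every level below. The mean of 10 neuronal markers was 11.98 to 12.10 over the 6 midbrain 48 h arrays and 11.53 to 11.61 in cortex 13 d, but 8.86 to 9.65 in cortex 48 h and 8.37 to 8.64 in midbrain 13 d. Neuronal markers were therefore high at 48 h in midbrain and at the labelled 13 d in cortex, the reverse order of times in the 2 regions. Whether the cortex times are crossed in the labels was not tested, and they are given here as labelled, so every statement below on cortex 48 h against 13 d, or on one region against the other at a time, holds only as far as those labels do. In cultures measured in bulk, fewer cells of a type and less RNA per cell cannot be told apart. Replicate 1 of cortex 48 h at 21% O2 stood apart from the other arrays of its group. Its astrocyte marker mean was 8.64 against 10.14 and 9.90, and its oligodendrocyte lineage mean 10.10 against 11.25 and 11.11. Replicate 1 of cortex 48 h at 3% O2 also differed from its group. Its oligodendrocyte lineage mean was 10.23 against 10.81 and 10.78, and its pericyte and fibroblast mean 7.31 against 6.69 and 6.83.

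Adcy8 had the widest range of the 9 genes. In midbrain 48 h its signal was 10.24, 10.52 and 10.26 at 3% O2 and 9.85, 10.14 and 10.05 at 21% O2. In midbrain 13 d it was 8.04, 7.56 and 8.05 at 3% O2 and 9.41, 9.03 and 9.20 at 21% O2. The arrays at 3% O2 thus lay above those at 21% O2 at 48 h and below them at 13 d, with no overlap at either time.

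In cortex, with the times as labelled, the order was the opposite. At 48 h Adcy8 read 6.87, 6.97 and 6.89 at 3% O2 and 8.05, 8.32 and 8.36 at 21% O2. At 13 d it read 8.63, 8.70 and 8.72 at 3% O2 and 8.30, 8.42 and 8.24 at 21% O2. The groups again did not overlap at either time, and 3% O2 was the lower one at 48 h and the higher one at 13 d.

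As differences of 3% minus 21% O2, Adcy8 was higher by 0.33 in midbrain 48 h (95% interval 0.08 to 0.59) and by 0.36 in cortex 13 d (0.11 to 0.62). It was 2.52-fold lower in midbrain 13 d, a log2 difference of -1.33 (-1.59 to -1.07), and 2.53-fold lower in cortex 48 h, at -1.34 (-1.59 to -1.08). These intervals make no allowance for the choice of Adcy8 by these differences and are no test. Without replicate 2 at 3% O2, the lowest of its group, the midbrain 13 d difference was -1.17. The 2 larger differences were those of the groups in which the neuronal marker mean was low. If the cortex times were exchanged, the oxygen differences of Adcy8 in midbrain and cortex would be 0.33 beside 0.36 and -1.33 beside -1.34. Its level averaged over oxygen would still be higher in midbrain 48 h than in cortex labelled 13 d, by 1.67. An exchange of times was not tested.

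Ordered by mean, Adcy8 was highest in midbrain 48 h at 3% O2 (10.34 ± 0.15, SD, n = 3) and at 21% O2 (10.01 ± 0.15), followed by midbrain 13 d at 21% O2 (9.21 ± 0.19). Cortex 13 d came next, with 8.69 ± 0.05 at 3% O2 and 8.32 ± 0.09 at 21% O2, then cortex 48 h at 21% O2 (8.25 ± 0.17). The lowest were midbrain 13 d at 3% O2 (7.88 ± 0.28) and cortex 48 h at 3% O2 (6.91 ± 0.06). The span of 3.43 corresponds to 10.8-fold. Of the 7 neighbouring pairs in that order 6 did not overlap, and only cortex 13 d and cortex 48 h at 21% O2 did. Where the order crosses midbrain 13 d, the array run crosses with it.

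Pde9a, a cyclic GMP hydrolase, also had low values at 3% O2 in those 2 settings. In midbrain 13 d it was 9.63, 9.09 and 9.66 at 3% O2 and 10.70, 10.57 and 10.67 at 21% O2. In cortex 48 h it was 8.30, 9.55 and 9.41 at 3% O2 and 10.43, 10.89 and 10.73 at 21% O2. Neither pair of groups overlapped, and replicate 1 of cortex 48 h at 3% O2 was lower than every other array of the series.

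In the other settings Pde9a hardly differed with oxygen. In midbrain 48 h it was 9.28, 9.31 and 9.41 at 3% O2 and 9.27, 9.16 and 9.31 at 21% O2. In cortex 13 d it was 9.59, 9.67 and 9.62 at 3% O2 and 9.70, 9.64 and 9.64 at 21% O2. The groups overlapped in both.

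The differences of 3% minus 21% O2 for Pde9a were 0.09 in midbrain 48 h, -1.19 in midbrain 13 d, -1.60 in cortex 48 h and -0.03 in cortex 13 d, each with a standard error of 0.21. The larger ones correspond to 2.28-fold and 3.03-fold lower signal at 3% O2. The standard error makes no allowance for the choice of Pde9a by these differences. Without replicate 1 at 3% O2 the cortex 48 h difference was -1.20. The highest group means were 10.68 in cortex 48 h and 10.65 in midbrain 13 d, both at 21% O2, which overlapped. The other 6 groups lay between 9.09 and 9.66, each overlapping its neighbour in the order. Adcy8 was thus spread along the whole order of groups, and Pde9a formed a high pair and a low remainder.

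**Figure D1:**
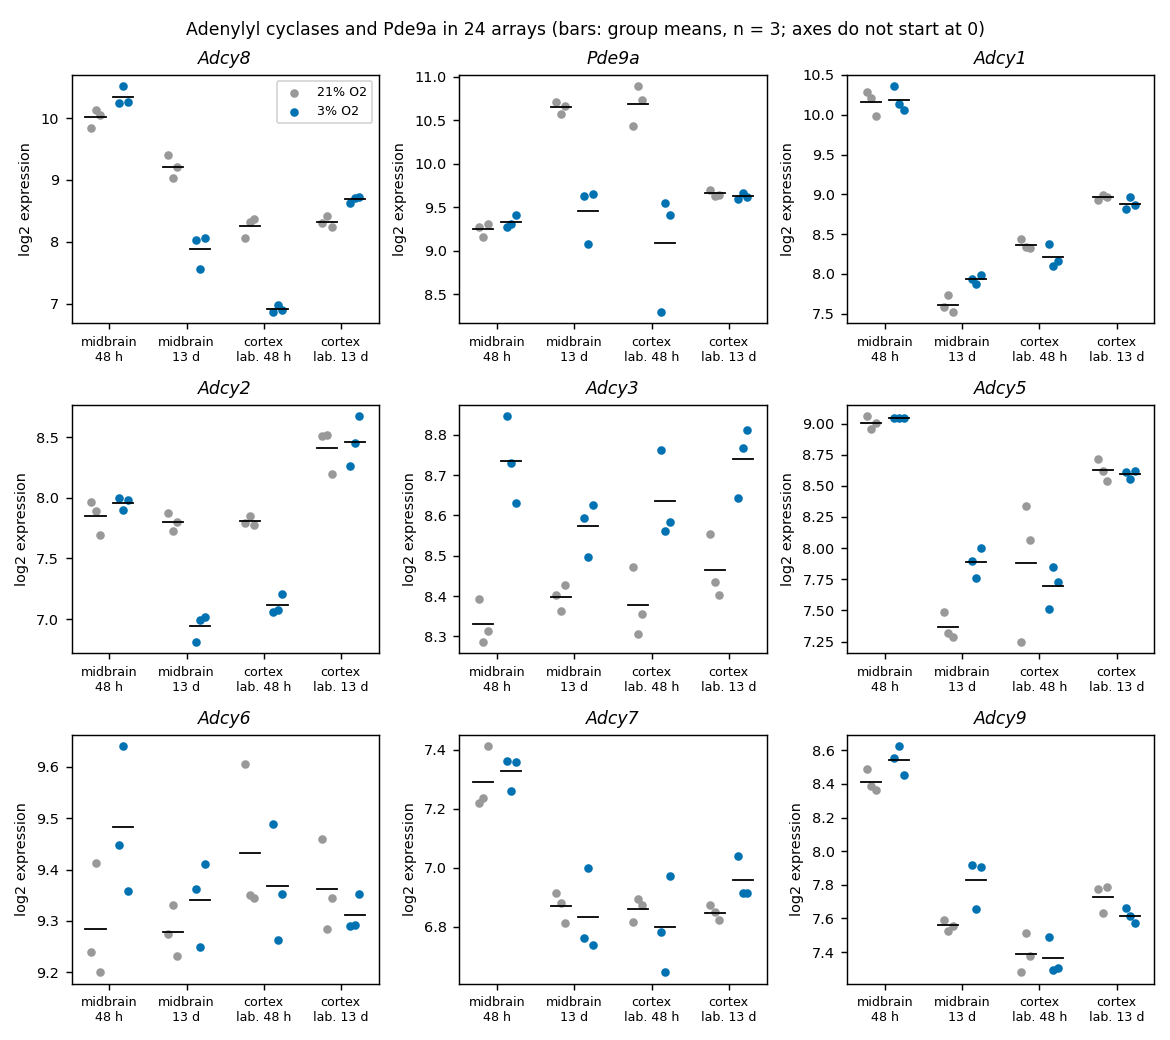
Normalised log2 signal of each of the 9 genes (vertical axis of each panel) in the 8 groups (horizontal axis), with 1 point per array, 3 arrays per group, and a bar at the group mean. The axes do not start at 0. Adcy8 spans 3.43 between its lowest and highest group mean, Pde9a 1.60 and Adcy6 0.20.

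With midbrain 13 d in an array run of its own, Adcy1, the other calcium-stimulated cyclase, had an order of groups close to region and time. Its group means were 10.19 ± 0.16 and 10.16 ± 0.16 (SD, n = 3) in midbrain 48 h at 3% and 21% O2, 8.88 ± 0.08 and 8.96 ± 0.03 in cortex 13 d, 8.21 ± 0.14 and 8.36 ± 0.06 in cortex 48 h, and 7.93 ± 0.06 and 7.61 ± 0.11 in midbrain 13 d. The oxygen levels of a setting were always neighbours in that order, and overlapped in all settings but midbrain 13 d. No array of one setting overlapped one of the next. The span of 2.57 corresponds to 5.95-fold.

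Adcy2, a cyclase that G protein beta-gamma subunits stimulate, was ordered otherwise. Its highest means were in cortex 13 d, at 8.47 ± 0.21 and 8.41 ± 0.18 for 3% and 21% O2. Midbrain 48 h at 3% O2 (7.96 ± 0.05) and at 21% O2 (7.85 ± 0.14), cortex 48 h at 21% O2 (7.81 ± 0.04) and midbrain 13 d at 21% O2 (7.80 ± 0.08) followed, each overlapping its neighbour. Cortex 48 h and midbrain 13 d at 3% O2 lay below all others, at 7.11 ± 0.08 and 6.94 ± 0.12, and did not overlap each other.

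Adcy5, a calcium-inhibited cyclase, was highest in midbrain 48 h (9.04 ± 0.0026 at 3% O2 and 9.01 ± 0.05 at 21% O2) and next in cortex 13 d (8.60 ± 0.04 and 8.62 ± 0.09). Its other 4 means lay between 7.37 ± 0.11 in midbrain 13 d at 21% O2 and 7.89 ± 0.12 in the same setting at 3% O2. Cortex 48 h at 21% O2 had the largest SD of that gene, 0.57. Adcy9 was highest in midbrain 48 h, at 8.54 ± 0.09 and 8.41 ± 0.07, and lowest in cortex 48 h, at 7.36 ± 0.11 and 7.39 ± 0.12, with midbrain 13 d and cortex 13 d between 7.56 and 7.83.

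The remaining cyclases had the narrowest spans of the family. Adcy7 stood out in midbrain 48 h alone, at 7.33 ± 0.06 and 7.29 ± 0.11, above means of 6.80 to 6.96 in the other 6 groups. Adcy3 had means of 8.57 to 8.74 in the 4 groups at 3% O2 and of 8.33 to 8.46 in the 4 at 21% O2, with every neighbour in the order overlapping. Adcy6, the relative of Adcy5, had means of 9.28 to 9.48 that overlapped throughout, a span of 0.20 or 1.15-fold.

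The levels averaged over oxygen, which the choice of genes did not use, were tested between the 3 settings of array run 2. The test was limma, a linear model fitted across all 23410 named probe sets, with Benjamini-Hochberg adjustment at a threshold of 0.05. For Adcy8 and Pde9a these levels average over the oxygen values on which the genes were chosen. Between midbrain 48 h and cortex 48 h, 7 of the 9 genes passed, 6 higher in midbrain and 1 lower, where 66.4% of all probe sets passed, 27.2% higher and 39.2% lower. Adcy8 was 6.05-fold higher in midbrain, a log2 difference of 2.60 ± 0.09 (SE, 6 arrays against 6, adjusted p = 6.49e-16). Adcy8 differed more at 3% O2, with means of 10.34 against 6.91, than at 21% O2, with 10.01 against 8.25. Adcy1, its calcium-stimulated relative, was higher by 1.89 ± 0.06 (adjusted p = 4.38e-16). Adcy5 was higher by 1.24, Adcy9 by 1.10, Adcy7 by 0.48 and Adcy2 by 0.45. The Adcy2 value came mostly from 3% O2, with 7.96 in midbrain against 7.11 in cortex. At 21% O2 its means were 7.85 and 7.81 and the arrays overlapped.

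Pde9a ran the other way, with -0.60 ± 0.15 (limma, adjusted p = 0.00167) in midbrain 48 h against cortex 48 h. That direction held at 21% O2, with group means of 9.25 against 10.68, and not at 3% O2, with 9.33 against 9.09, and the arrays of the settings overlapped. Adcy3 and Adcy6 did not pass, with differences of 0.03 (95% interval -0.07 to 0.12) and -0.02 (-0.14 to 0.10).

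The 2 cortex times differed in 5 of the 9 genes, all higher at 13 d than at 48 h, where 50.3% of all probe sets passed, 20.7% higher and 29.6% lower. The differences were 0.98 ± 0.07 for Adcy2, 0.92 ± 0.09 for Adcy8, 0.82 ± 0.12 for Adcy5, 0.64 ± 0.06 for Adcy1 and 0.30 ± 0.05 for Adcy9, with limma adjusted p between 2.45e-10 and 8.37e-05. Adcy2 had the largest difference of the 9 genes, ahead of Adcy8 by less than 1 standard error. The value of Adcy8 came mostly from 3% O2, with 8.69 at 13 d against 6.91 at 48 h. At 21% O2 its means were 8.32 and 8.25 and the arrays overlapped, so the averaged level is not apart from the oxygen difference described above. Pde9a did not pass (-0.24, adjusted p = 0.196), but without replicate 1 of cortex 48 h at 3% O2 it did, at -0.44 (adjusted p = 0.000348).

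The 2 settings rich in neuronal markers, midbrain 48 h and cortex 13 d, differed in 6 of the 9 genes, 5 higher in midbrain 48 h and 1 lower, where 51.1% of all probe sets passed, 24.1% higher and 27.0% lower. Adcy8 was higher in midbrain by 1.67 ± 0.09, Adcy1 by 1.25 ± 0.06, Adcy9 by 0.81 ± 0.05, Adcy5 by 0.42 ± 0.12 and Adcy7 by 0.41 ± 0.05. Adcy2 was lower in midbrain, at -0.53 ± 0.07 (limma, adjusted p = 1.58e-06). Of the 6 genes that passed, Adcy2 thus had the higher level in cortex 13 d and the other 5 in midbrain 48 h.

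Markers of other cells moved with these levels. Of 10 neuronal markers, 10 were higher in midbrain 48 h than in cortex 48 h, 9 were higher in cortex 13 d than in cortex 48 h, and 7 were higher in midbrain 48 h than in cortex 13 d, with none lower. Microglial markers were higher in midbrain 48 h than in either cortex setting in 9 of 9 genes, with array means of 7.58 to 8.18 against 6.37 to 6.90. Of 9 oligodendrocyte lineage markers 8 were lower in midbrain 48 h than in cortex 48 h, and of 7 astrocyte markers 6 were. In cortex 13 d 9 of 9 and 6 of 7 were lower than in cortex 48 h. Of 10 neural stem cell markers 9 were lower in midbrain 48 h than in cortex 48 h, 10 were lower than in cortex 13 d, and 7 were lower in cortex 13 d than in cortex 48 h. Normalised log2 signals have no zero, so no marker can be called absent. The part of cell make-up in the levels of the cyclases was not tested.

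The responses of the other 7 cyclases to oxygen were tested in the same model. In midbrain 48 h, 1 of 7 passed, where 1.19% of all probe sets did, and 2 had an unadjusted p under 0.05. Adcy3, the cilium-bound isoform, read 8.85, 8.73 and 8.63 at 3% O2 and 8.39, 8.29 and 8.31 at 21% O2. Its groups did not overlap, as in 18.8% of all probe sets and in none of the other 6 cyclases. The rise was 0.41 ± 0.07 (SE, limma, adjusted p = 0.0041). A fit of those 6 arrays alone gave an adjusted p of 0.179.

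In midbrain 13 d, 4 of 7 passed, 3 higher and 1 lower at 3% O2, where 23.9% of all probe sets passed, 11.2% higher and 12.7% lower. Adcy2 read 6.81, 6.99 and 7.02 at 3% O2 and 7.88, 7.72 and 7.80 at 21% O2. It fell by 0.86 ± 0.10 (limma, adjusted p = 2.17e-06), with every array at 3% O2 below every array at 21% O2.

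Adcy1 read 7.94, 7.87 and 7.99 at 3% O2 and 7.59, 7.74 and 7.52 at 21% O2, a rise of 0.32 ± 0.09 (limma, adjusted p = 0.00983). Adcy5 read 7.90, 7.76 and 8.00 against 7.49, 7.32 and 7.28, a rise of 0.52 ± 0.17 (adjusted p = 0.0272). Adcy9 read 7.92, 7.66 and 7.91 against 7.59, 7.53 and 7.56, a rise of 0.27 ± 0.08 (adjusted p = 0.0119). In these 3 genes the groups did not overlap, and Adcy1 ran against its calcium-stimulated relative Adcy8, which was lower at 3% O2. Each of the 3 calls was lost when single arrays were left out: Adcy1 without 1 of the 6 arrays (adjusted p up to 0.0573), Adcy5 without any of 4 (up to 0.104) and Adcy9 without either of 2 (up to 0.072).

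With Adcy2, Adcy1, Adcy5 and Adcy9, Adcy3 was the last of 5 of the 7 cyclases without overlap in midbrain 13 d, which 40.5% of all probe sets were. Its difference was 0.18 (adjusted p = 0.0661, against 0.0433 with the replicate number as a block, 0.0298 after quantile normalisation and 0.0339 in a fit of the 6 arrays alone). Of 9 pericyte and fibroblast markers 4 rose in this comparison, with array means of 7.63 to 7.89 at 3% O2 and 7.00 to 7.06 at 21% O2, and 2 of 8 endothelial markers rose. Of 10 neuronal markers 1 rose and 2 fell, with overlapping array means. The oligodendrocyte lineage mean was 9.96 to 10.35 at 3% O2 and 10.62 to 10.70 at 21% O2, and the neural stem cell mean 11.05 to 11.22 and 11.29 to 11.31, neither with overlap. The part of these markers in the cyclase values was not tested.

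In cortex 48 h, 2 of 7 passed, where 12.3% of all probe sets did. Adcy2 fell by 0.69 ± 0.10 (limma, adjusted p = 9.05e-05), from 7.79, 7.85 and 7.77 at 21% O2 to 7.05, 7.08 and 7.21 at 3% O2. The groups were apart by more than the spread within either, and 2 of 7 cyclases did not overlap here, as in 22.8% of all probe sets. Adcy3 rose by 0.26 ± 0.07 (adjusted p = 0.0147), from 8.47, 8.31 and 8.36 to 8.76, 8.56 and 8.58. That call was lost without replicate 2 or 3 at 21% O2 or replicate 1 at 3% O2 (adjusted p up to 0.0959), and in a fit of the 6 arrays alone (0.168).

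Adcy5 had values of 7.51, 7.85 and 7.73 at 3% O2 and 7.24, 8.34 and 8.07 at 21% O2 in cortex 48 h, with a difference of -0.19 that did not pass. The low value belonged to replicate 1 at 21% O2, the array that stood apart in its astrocyte and oligodendrocyte markers. Without it the difference was -0.51 (limma, adjusted p = 0.000696). Of 10 neuronal markers 6 fell at 3% O2 in this comparison, with array means of 8.86 to 9.25 at 3% O2 and 9.36 to 9.65 at 21% O2, and their part in the cyclase values was not tested.

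In cortex 13 d, 0 of 7 passed with limma, where 0.607% of all probe sets did, and 1 had an unadjusted p under 0.05. That gene was Adcy3, at 8.64, 8.77 and 8.81 with 3% O2 and 8.55, 8.43 and 8.40 with 21% O2, a difference of 0.28 (adjusted p = 0.0775, and 0.00872 after quantile normalisation). Its groups did not overlap, nor did those of Adcy7, 2 of 7 where 17.6% of all probe sets did not.

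Adcy3 was thus higher at 3% O2 with no overlap of arrays in all 4 settings, a pattern of 0.453% of all probe sets, or 106. Adcy2 was called lower in both midbrain 13 d and cortex 48 h, which 3.53% of all probe sets were. Both patterns were picked out after the values were seen. Adcy6 and Adcy7 passed in no oxygen comparison, with differences of -0.06 to 0.20 for Adcy6 and -0.06 to 0.11 for Adcy7. The widest of their 95% intervals reached -0.24 and 0.37.

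**Figure D2:**
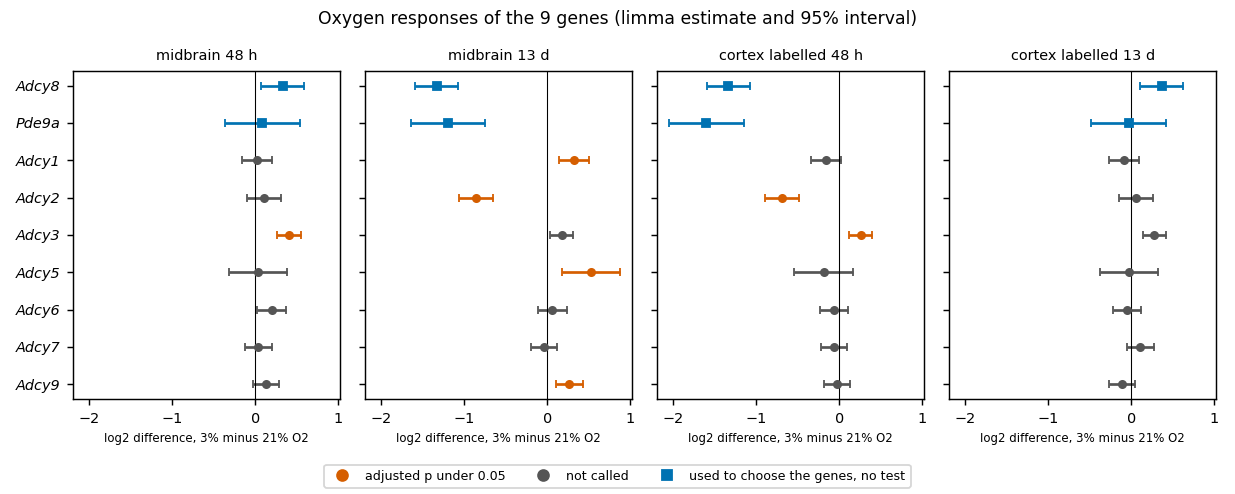
Difference in log2 signal between 3% and 21% O2 for each of the 9 genes in the 4 settings of region and labelled time, with 95% intervals from the model. Adcy8 and Pde9a, shown without a test, lie between -1.60 and -1.19 in midbrain 13 d and cortex 48 h, and Adcy2 follows at -0.86 and -0.69. The intervals of Adcy8 and Pde9a make no allowance for their choice by these values.

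Upstream sequence could be set beside these responses for 6 of the 9 genes, in 9 windows. The RefSeq promoter table of build GRCm38.p6 gave the 250 bases before a start site for Adcy1, Adcy2, Adcy3, Adcy5, Adcy7 and Adcy9. Both strands were searched for ACGTG (reverse complement CACGT), a form of the core bound by hypoxia-inducible factors. The other form, GCGTG, was not searched. The search also covered TGACG (reverse complement CGTCA) and its full form TGACGTCA, bound by the cyclic AMP-responsive factor CREB. Shown are the windows of 2 cyclases that rose in midbrain 13 d, of Adcy2, which fell there, and the first of 2 windows of Adcy3. They are written 5′ to 3′ on the gene's strand, with ACGTG or CACGT in capitals.
Adcy1 promoter, chr11:7063183-7063432, plus strand: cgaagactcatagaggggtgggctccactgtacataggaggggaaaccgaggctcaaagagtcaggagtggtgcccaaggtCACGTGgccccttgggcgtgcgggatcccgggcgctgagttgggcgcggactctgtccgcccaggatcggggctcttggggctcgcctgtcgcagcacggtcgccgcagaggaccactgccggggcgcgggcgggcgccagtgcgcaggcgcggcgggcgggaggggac
Adcy9 promoter, chr16:4420499-4420748, minus strand: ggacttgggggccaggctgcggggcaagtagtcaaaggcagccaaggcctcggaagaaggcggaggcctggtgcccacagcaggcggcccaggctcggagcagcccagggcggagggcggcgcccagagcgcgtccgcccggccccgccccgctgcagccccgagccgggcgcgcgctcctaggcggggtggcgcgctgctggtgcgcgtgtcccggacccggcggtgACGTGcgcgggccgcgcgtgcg
Adcy2 promoter, chr13:68999542-68999791, minus strand: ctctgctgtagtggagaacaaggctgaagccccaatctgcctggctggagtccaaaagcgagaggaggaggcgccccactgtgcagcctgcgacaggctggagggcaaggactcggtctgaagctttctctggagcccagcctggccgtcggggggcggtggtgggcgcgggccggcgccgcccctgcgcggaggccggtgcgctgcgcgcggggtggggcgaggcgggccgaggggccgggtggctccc
Adcy3 promoter, chr12:4133147-4133396, plus strand: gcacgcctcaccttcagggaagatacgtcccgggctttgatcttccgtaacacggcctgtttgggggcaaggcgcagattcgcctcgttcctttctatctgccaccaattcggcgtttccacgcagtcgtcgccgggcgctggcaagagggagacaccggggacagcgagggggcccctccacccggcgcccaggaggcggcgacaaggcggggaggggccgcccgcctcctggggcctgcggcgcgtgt

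ACGTG was found in Adcy1, as the palindrome CACGTG counted on both strands, and in Adcy9, where it overlaps TGACG. It was in 2 of the 9 windows, and 16.6% of all 32851 promoter windows hold it. TGACG was in Adcy9 and in 1 of 3 Adcy7 windows, against 17.8% of all windows, and TGACGTCA in none, against 1.55%. Adcy5, which also rose in midbrain 13 d, had none of these words. A match is a run of letters and not a measured site, and its absence says only that those letters are not in the window.

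The differences between oxygen responses were tested directly for the 7 cyclases. The 4 comparisons share arrays with one another. For midbrain 13 d minus 48 h, 1 of 7 passed, where 15.1% of all probe sets did. That was Adcy2, at -0.97 ± 0.14 (limma, adjusted p = 8.89e-05). With the replicate number as a block Adcy1 passed too, at 0.29 (adjusted p = 0.0418 against 0.125 without the block). For cortex 13 d minus 48 h, Adcy2 alone passed, at 0.75 ± 0.14 (adjusted p = 0.00511), where 4.13% of all probe sets did.

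Between regions at 48 h, Adcy2 alone passed again, with a response in midbrain that exceeded that in cortex by 0.80 ± 0.14 (limma, adjusted p = 0.00209), where 5.88% of all probe sets passed. At 13 d 3 of 7 passed, where 13.5% of all probe sets did. Adcy2 was at -0.91 ± 0.14 (adjusted p = 0.000171), Adcy1 at 0.40 ± 0.12 (adjusted p = 0.0343) and Adcy9 at 0.38 ± 0.11 (adjusted p = 0.0201). The Adcy1 call was lost in 8 of 12 fits that left out 1 array (adjusted p up to 0.0906) and the Adcy9 call in 3 (up to 0.0635).

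Adcy5 passed in both cortex 48 h comparisons when replicate 1 at 21% O2 was left out, at 0.48 for cortex 13 d minus 48 h and 0.55 for midbrain minus cortex at 48 h (limma, adjusted p = 0.0163 and 0.00768). With all arrays it did not. With the replicate block, which takes like numbers together in cortex too, it passed between regions at 13 d (0.55, adjusted p = 0.0367).

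The corresponding values for Adcy8, as a description, were -1.66 for midbrain 13 d minus 48 h, 1.70 for cortex 13 d minus 48 h, 1.67 between regions at 48 h and -1.70 at 13 d. Those for Pde9a were -1.28, 1.57, 1.68 and -1.16 in the same order. In each of the 4 comparisons Adcy2 had a smaller difference than Adcy8 and Pde9a.

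The share of each gene's variation that lay between regions and times, with oxygen, or within groups shows how unlike the family members were. Region and time held 98.0% of the variation of Adcy1, 93.2% of Adcy9, 86.4% of Adcy5 and 84.1% of Adcy7, against a median of 63.6% over all probe sets. Oxygen as a common shift held 70.6% for Adcy3, against a median of 1.8%. Oxygen effects that differed between settings held 34.3% for Pde9a, 24.1% for Adcy6, 17.6% for Adcy2 and 15.7% for Adcy8, against a median of 5.9%. For Pde9a and Adcy8 that share is what they were chosen on. For Adcy6, 62.1% lay within groups, and it passed no test of a difference between oxygen responses (limma, adjusted p = 0.196 to 0.975). The shares make no allowance for the spread within groups.

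**Figure D3:**
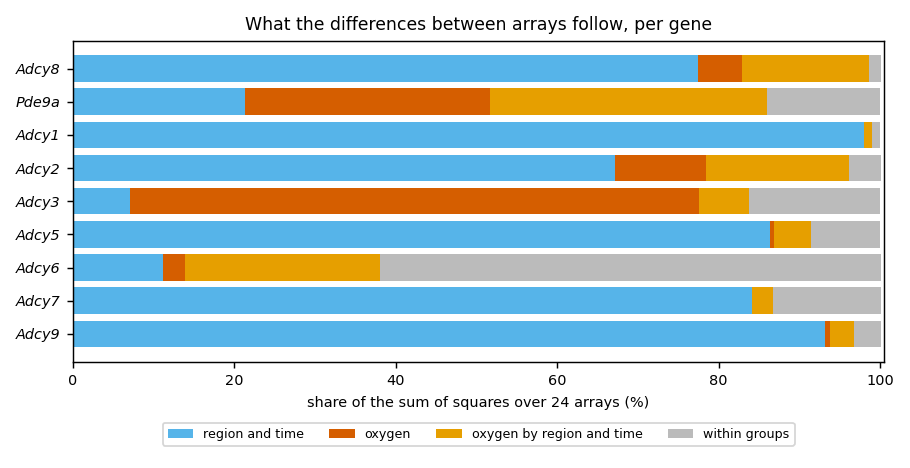
Percent of the sum of squares over 24 arrays for each of the 9 genes, split into region and time, oxygen, oxygen by region and time, and the spread within groups. Adcy1 is 98.0% region and time, Adcy3 70.6% oxygen, and Adcy6 62.1% within groups.

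Genes around the cyclases in cyclic AMP and cyclic GMP signalling were counted over 8 lists with 85 genes, of which 77 were measured. In midbrain 48 h 1 rose and 1 fell, where 1.19% of all probe sets passed. In midbrain 13 d 20 rose and 12 fell, where 23.9% passed. In cortex 48 h 9 rose and 9 fell, where 12.3% passed, and in cortex 13 d 0 rose and 1 fell, where 0.607% passed. The pathway genes that passed were therefore mostly in the same 2 settings as the larger differences of Adcy8 and Pde9a, which also had the highest shares of calls over the whole table. In all, 14 passed in both of these settings, and in 14 the direction was the same. Over all probe sets it was the same for 1683 of 1749.

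Among 17 other phosphodiesterases, 6 rose and 3 fell in midbrain 13 d, and 2 rose and 2 fell in cortex 48 h. Pde1b, a calcium-calmodulin-stimulated enzyme that hydrolyses both messengers, fell by 1.46 ± 0.13 in midbrain 13 d (10.06 ± 0.15 at 21% O2 against 8.59 ± 0.30 at 3% O2, SD, n = 3) and by 1.19 ± 0.13 in cortex 48 h. Its relative Pde1c fell by 0.55 in midbrain 13 d, whereas Pde1a rose by 0.81. Pde3b, a cyclic GMP-inhibited enzyme, rose by 0.87 and by 0.52. Pde8a, specific for cyclic AMP, rose by 0.78 in midbrain 13 d and by 0.40 in cortex 48 h. Pde7a, also specific for cyclic AMP, fell by 0.23 in midbrain 13 d and by 0.28 in cortex 48 h.

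Of 17 measured receptors that raise cyclic AMP, 4 rose and 3 fell in midbrain 13 d and 2 rose and 2 fell in cortex 48 h. Mc4r, a melanocortin receptor, fell by 1.13 ± 0.13 and by 1.08 ± 0.13. Adcyap1r1, the receptor of the neuropeptide PACAP, fell by 0.60 ± 0.08 and by 0.50 ± 0.08. Those 2 receptors were lower at 3% O2 in the same settings as Adcy8, and other receptors were higher. Glp1r, the incretin receptor, rose by 0.86 and Htr6, a serotonin receptor, by 0.79 in midbrain 13 d. Ptger4, a prostaglandin receptor, rose by 0.45 and Pth1r, the parathyroid hormone receptor, by 0.37 in cortex 48 h. Pth1r was called higher in midbrain 13 d too.

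Of 8 measured G protein alpha subunits, Gnaz, of an inhibitory type, fell by 0.30 in midbrain 48 h (limma, adjusted p = 0.0425) and rose by 0.60 in midbrain 13 d (adjusted p = 2.51e-06). Gnai1, also inhibitory, rose by 0.48 in midbrain 13 d. Gnai2, another of that type, fell by 0.24 there and by 0.26 in cortex 48 h, where Gnaq, which activates phospholipase C, rose by 0.23. Of the 2 other cyclases, Adcy4 and the soluble Adcy10, 0 passed with limma in any oxygen response, with 1 at an unadjusted p under 0.05 in midbrain 48 h and 1 in cortex 48 h.

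Downstream, 3 of 13 measured genes of protein kinase A, Epac and their anchors rose and 2 fell in midbrain 13 d, and 3 fell in cortex 48 h. Pkia, an inhibitor of protein kinase A, fell by 1.02 ± 0.10 and by 0.59 ± 0.10, and Akap5, a synaptic anchor of the kinase, by 0.37 and 0.30. Akap12, an anchor at the membrane, rose by 1.14 ± 0.19 in midbrain 13 d, with the regulatory subunits Prkar2a and Prkar2b at 0.37 and 0.40, while Pkig, a kinase inhibitor, fell by 0.37 in cortex 48 h. Of 8 CREB factors and coactivators, 3 fell in midbrain 13 d: Crtc1 by 0.36, Crtc3 by 0.36 and Creb1 by 0.25. Crtc1 also fell by 0.30 in cortex 48 h, where Crem rose by 0.45, and Crtc3 fell by 0.32 in cortex 13 d.

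On the cyclic GMP side, of which Pde9a is a degrading enzyme, 4 of 10 genes rose and 0 fell in midbrain 13 d. Of all probe sets 11.2% rose and 12.7% fell there. In cortex 48 h 3 rose and 0 fell, where 12.3% of all probe sets passed in either direction. Gucy1a1 and Gucy1b1, the subunits of the nitric oxide receptor that makes cyclic GMP, rose by 0.76 ± 0.12 and 0.51 ± 0.13 in midbrain 13 d, and Gucy1a1 rose by 0.63 ± 0.12 in cortex 48 h. Npr3, the natriuretic peptide clearance receptor, rose by 0.32 and 0.56, and the cyclic GMP-dependent kinase Prkg1 by 0.24 and 0.21. In midbrain 48 h Npr2, a natriuretic peptide receptor that makes cyclic GMP, rose by 0.83 ± 0.15 (limma, adjusted p = 0.00816), from 8.22 ± 0.07 to 9.05 ± 0.09. The pericyte and fibroblast markers that rose in midbrain 13 d are given above, and their part in these values was not tested. Of the 2 measured calmodulin genes, Calm2 rose by 0.34 in midbrain 13 d.

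**Figure D4:**
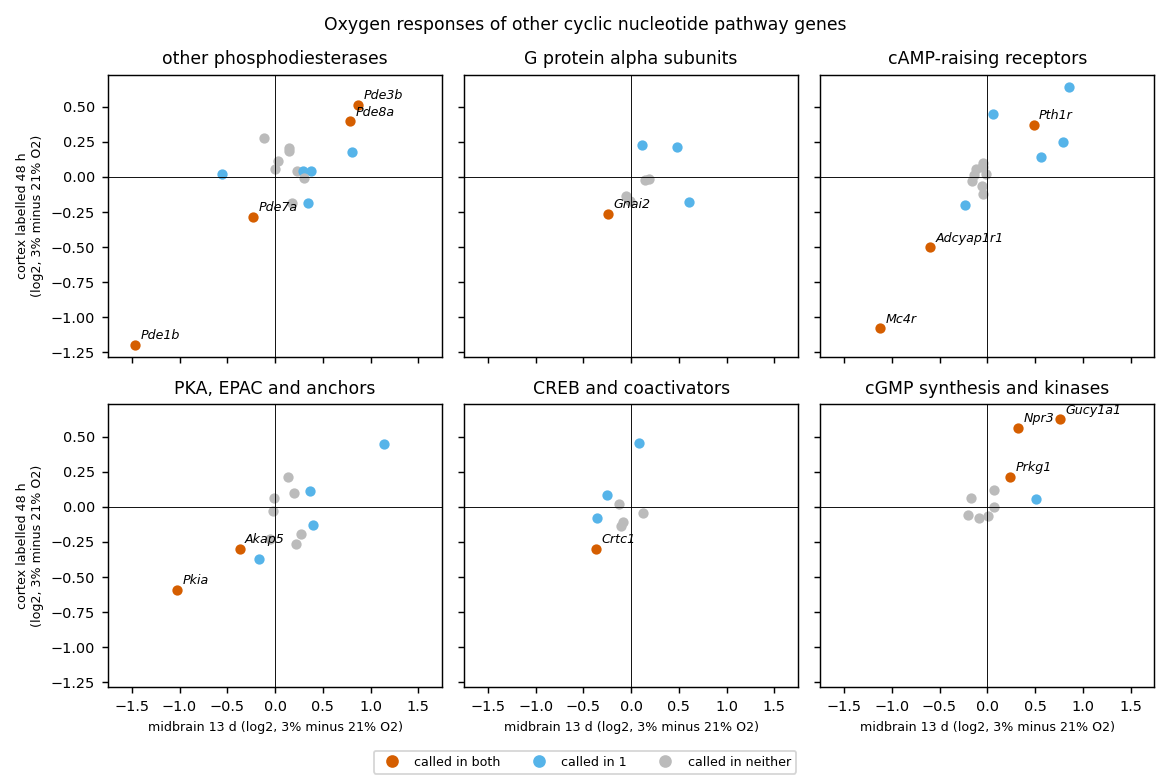
Difference in log2 signal between 3% and 21% O2 in midbrain 13 d (horizontal axis) and in cortex 48 h (vertical axis) for the measured genes of 6 pathway lists, with 1 point per gene and colours for genes past the threshold in both settings, in 1 or in neither. The 14 named genes passed in both, 6 higher and 8 lower in both.

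The genes whose signal over the 24 arrays was most like that of Adcy8 were Limk2, a kinase of the actin cytoskeleton (Pearson r = 0.968), Trafd1, a regulator of innate immune signalling (0.963), and Gjd2, the neuronal gap junction protein of the connexin family (0.963). All had their lowest group mean in cortex 48 h at 3% O2 and their highest in midbrain 48 h at 3% O2, as Adcy8 did. Gjd2 differed with oxygen by -1.45 in midbrain 13 d and -0.80 in cortex 48 h.

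Those most like Pde9a were Abat, which degrades the transmitter GABA (r = 0.918), the growth factor receptor Fgfr2 (0.883) and Rhpn1 (0.878). Abat differed with oxygen by -1.48 in midbrain 13 d, -1.44 in cortex 48 h, -0.09 in midbrain 48 h and -0.06 in cortex 13 d. These likenesses are over arrays that share groups and runs and are a description.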

How the data were processed

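The deposited log2 signals of 28856 probe sets on 24 arrays had been normalised by the authors, per the labels. How background was corrected and how arrays were scaled was not given in the labels used here, and neither was a genome build, so any shift common to a whole array is invisible. Values ran from 4.65 to 14.49. Of all probe sets 23410 had a gene symbol (1621 had several), and 5446 without one were not used here.

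With limma 3.58.1 (R 4.3.3), means of the 8 groups were estimated from all arrays with 16 residual degrees of freedom and default eBayes. All tests were two-sided and adjusted after Benjamini and Hochberg over 23410 probe sets in each of 11 comparisons. Precision is limited by the 3 arrays per group. No arrays of a group were duplicates (smallest SD of differences 0.0904).

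The genes, lists and tests were chosen with earlier results of these data known, and the region markers were added after the values were seen. Besides the 9 genes, those named were, per list and oxygen response, the called ones with the 2 largest rises and 2 largest falls, or all of 5 or fewer, and the 3 most like Adcy8 and the 3 most like Pde9a. Of the 85 genes of the pathway lists, 8 are not analysed here.

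Deviations from group means were correlated between arrays of the same number at 3% and 21% O2. In midbrain all 6 correlations of like numbers exceeded the limit of 0.1 (lowest 0.12, highest 0.42). In midbrain 13 d the unlike numbers 1 and 3 exceeded it too, at 0.16 and 0.17, so the limit does not settle their pairing. The midbrain numbers were taken as a possible pairing, which entered the replicate block and not the main fit. The pairing is read from the data, because what a number shares is not stated. In cortex the correlations of like numbers ran from -0.37 to 0.42 and gave no ground for a pairing. The replicate block still held the cortex numbers as well, so where cortex arrays are compared it takes like numbers together. Alternatives were quantile normalisation, median centring, brighter probe sets, the compared arrays alone, the replicate number as a block and the omission of each array in turn.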

Additional observations from a re-analysis of the deposited data

Results flagged for a closer look

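The oxygen response of Adcy2 differed between settings in all 4 tests of a difference: by -0.97 for midbrain 13 d minus 48 h, 0.75 for cortex 13 d minus 48 h, 0.80 for midbrain minus cortex at 48 h and -0.91 for midbrain minus cortex at 13 d. These tests share arrays, and each stayed past the threshold in the 12 fits that left out 1 array.

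The response of Adcy1 differed between midbrain and cortex at 13 d by 0.40, and that of Adcy9 by 0.38. Both were lost in some fits that left out 1 array, as given above.

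For Adcy8 every array at 3% O2 lay above every array at 21% O2 in one setting and below every such array in the other. The differences were -1.66 for midbrain 13 d minus 48 h, 1.70 for cortex 13 d minus 48 h, 1.67 for midbrain minus cortex at 48 h and -1.70 for midbrain minus cortex at 13 d. With the cortex times exchanged, the oxygen differences of Adcy8 in midbrain and cortex would be 0.33 beside 0.36 and -1.33 beside -1.34. Those of Pde9a would be 0.09 beside -0.03 and -1.19 beside -1.60. The level of Adcy8 would still differ, by 1.67 between midbrain 48 h and cortex labelled 13 d. An exchange of times was not tested. The oxygen differences of Adcy8 and Pde9a were not tested, because these genes were chosen for them.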

How the results depend on the processing

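Under alternatives other than leaving out an array, 50 counts of called genes stayed within 1.5 times the count reported and 5 did not, and no called gene changed sign. With the compared arrays alone, 0 of 7 cyclases passed in midbrain 48 h (1 with all arrays), 1 in cortex 48 h (2), and 2 for the midbrain difference of times (1). There Adcy5 joined Adcy2 (0.48, limma, adjusted p = 0.00543), and Adcy5 also passed between regions at 13 d (0.55, adjusted p = 0.0024). Quantile normalisation gave 1 in cortex 13 d (0), and called Adcy3 in midbrain 13 d (adjusted p = 0.0298), as did the compared arrays alone (0.0339). The replicate block was fitted in midbrain and in cortex. With it 2 passed for the midbrain difference of times (1), since Adcy1 joined Adcy2 (0.29, limma, adjusted p = 0.0418). Adcy3 passed in midbrain 13 d (0.18, adjusted p = 0.0433) and Adcy5 between regions at 13 d (0.55, adjusted p = 0.0367). The Adcy5 call takes like numbers together in cortex, where the correlations gave no ground for a pairing. The block changed no other call. In the fits of compared arrays alone Pde9a passed between midbrain 48 h and cortex 13 d (-0.35, adjusted p = 5.44e-06 against 0.059). The causes were not tested.

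Leaving out single arrays gave counts of 1 to 1 in midbrain 48 h, 2 to 5 in midbrain 13 d, 1 to 3 in cortex 48 h and 0 to 0 in cortex 13 d. For the differences of responses they were 1 to 2 between midbrain times, 1 to 2 between cortex times, 1 to 2 between regions at 48 h and 1 to 3 at 13 d. For the levels they were 7 to 7 for midbrain against cortex at 48 h, 5 to 7 between cortex times and 6 to 6 for midbrain 48 h against cortex 13 d. No alternative with several probe sets per gene was run, because each gene had 1. With 3 arrays a group, no depth and no signal over background, small differences could not be resolved.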

Other observations

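Of the other cyclases, Adcy4 was lower in midbrain 48 h than in cortex 48 h, by -0.31 (limma, adjusted p = 0.00525), and lower in cortex 13 d than in cortex 48 h, by -0.39 (adjusted p = 0.00112), the reverse of Adcy1, Adcy5, Adcy8 and Adcy9. Over the 77 measured pathway genes the levels averaged over oxygen were higher in midbrain 48 h than in cortex 48 h for 40 and lower for 20, where 27.2% of all probe sets were higher and 39.2% lower. They were higher in cortex 13 d than in cortex 48 h for 33 and lower for 21 (20.7% and 29.6% of all probe sets), and higher in midbrain 48 h than in cortex 13 d for 37 and lower for 20 (24.1% and 27.0%). All 8 measured G protein alpha subunits differed between midbrain 48 h and cortex 48 h, 5 higher and 3 lower, where 66.4% of all probe sets differed.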
